A study of Homo sapiens with 4 samples.

Results

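The genes that encode the aminoacyl-tRNA synthetases and the 3 scaffold proteins of the multisynthetase complex were followed in U251 cells, an established human glioblastoma (GBM) cell line, after knockdown of the arginine methyltransferase PRMT3. The members were taken by their symbols, under a rule set with earlier results of these data known. They are every gene whose symbol is a single amino acid letter followed by ARS or ARS2, with EPRS, FARSA, FARSB, AIMP1, AIMP2 and EEF1E1. The rule found 40 of the 15575 genes in the count table, and all 40 passed the filter on low counts that left 13172 genes to test. They comprise 8 enzymes of the multisynthetase complex, 3 scaffolds, 12 other cytosolic enzymes and 17 mitochondrial enzymes, the last being the symbols that end in 2. AIMP2 also ends in 2 but is a cytosolic scaffold, and it was placed with AIMP1 and EEF1E1.

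The experiment has 2 Ctrl libraries from U251 cells with a control lentivirus (pGreen in the titles) and 2 PRMT3-KD libraries from U251 cells with PRMT3 shRNA. Cells of both groups were thus transduced with a lentivirus, and the study states 72 h for this comparison. The labels do not say that the libraries come from separate cultures, so the p-values measure the spread between these libraries, which may be technical, and they do not name the shRNA. U251 is 1 line, and nothing in the values below speaks for other GBM cells. Values are given as counts, as CPM (counts scaled to a common library total after correction by TMM factors), or as the log2 fold change of PRMT3-KD over Ctrl. A gene is called higher or lower when edgeR's quasi-likelihood test gave a p-value under 0.05 after Benjamini-Hochberg adjustment over the 13172 genes. The smallest p that an exact two-sided permutation test can give with 2 and 2 libraries is 0.333, and single genes were therefore tested in the model across all genes.

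Each synthetase joins 1 amino acid to the tRNAs that read its codons, using ATP, and the charged tRNA is handed to an elongation factor that carries it to the ribosome. The enzymes fall into class I and class II, which have unrelated catalytic folds. In animal cells several cytosolic synthetases are held together by the scaffolds AIMP1, AIMP2 and EEF1E1 (also called AIMP3). Mitochondria translate their own few mRNAs with a separate set of synthetases, encoded in the nucleus and imported. GARS and KARS supply both compartments from 1 gene each, and no mitochondrial QARS2 gene exists, since mitochondrial glutaminyl-tRNA is made from glutamyl-tRNA by an amidotransferase. Many cytosolic synthetase genes are induced by ATF4, the transcription factor of the amino acid response.

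The libraries held between 24804250 and 29756313 counts, and their TMM factors lay between 0.955 and 1.02. Counts of PRMT3, the targeted gene, were 535 and 535 in Ctrl and 77 and 45 in PRMT3-KD. Its level went from 19.4 ± 0.0998 to 2.31 ± 1.02 CPM (SD, n = 2 each), and the log2 fold change was -3.08 (SE 0.314, adjusted p = 0.0177, edgeR). Without Ctrl library 1 or Ctrl library 2 this adjusted p was 0.0963 or 0.0512. The PRMT3-KD libraries stood further apart than the Ctrl libraries. The chi-square of the counts of a pair was 1.42 per degree of freedom in Ctrl and 66.4 in PRMT3-KD, over 13074 and 13066 genes. All 10 glioma markers looked for had counts, though GFAP and S100B, which mark astrocytes, had at most 392 and 80 in a library. Of these 10 markers 5 lay below Ctrl in both PRMT3-KD libraries (50%, against 33.8% of all tested genes). In both libraries 1 lay above Ctrl (10%, against 33.3%), and 4 overlapped. CD44, EGFR and S100B had log2 fold changes of 0.0011, 0.15 and 0.19, and the other 7 were below 0. SOX9 was called lower (log2 fold change -0.65, adjusted p = 0.0215, edgeR), and GFAP and FABP7 were at 24.3% and 56.5% of Ctrl with adjusted p of 0.0958 and 0.0882. Of 11 markers of leukocytes, epithelium, endothelium, neurons and oligodendrocytes, 4 (CD3E, EPCAM, PECAM1 and RBFOX3) were not in the table, and the others summed to between 27.4 and 33.5 CPM, of which the lysosomal protein gene CD68 was the main part. The part of either marker list in the results below was not tested.

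Most synthetase genes were not called after PRMT3 knockdown. Of the 40 genes, 3 were called lower, VARS, VARS2 and EARS2, and 1 was called higher, LARS. The 3 lower genes are 7.5% of the 40, where 8.91% of all tested genes were called lower, and the 1 higher gene is 2.5%, where 8.39% of all tested genes were called higher. All 3 lower genes also changed by over 1.5-fold, which 5.97% of all tested genes did downward. None of the 40 rose by over 1.5-fold with an adjusted p under 0.05, against 4.97% of all tested genes, and LARS was the only call below that size. At an unadjusted p under 0.05, 9 of the 40 genes passed in either direction, against 37.6% of all tested genes. The shares are therefore near or below those of the transcriptome, and what follows describes the 4 genes and the spread of the others. In these bulk libraries fewer cells with a transcript and less of it per cell cannot be told apart.

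The size of the changes was small across the family. The median absolute log2 fold change was 0.162 in the 40 genes and 0.293 in all tested genes. A change of over 1.5-fold in either direction, called or not, was fitted for 3 of the 40 genes (7.5%) and for 21.9% of all tested genes. The 95% interval of the log2 fold change lay wholly within 1.5-fold up or down for 30 of the 40 genes (75%), compared with 37% of all tested genes. For each of those 30 genes the interval leaves out a change of the size at which VARS fell. The intervals hold gene by gene and not for the 30 together, and they reflect only the spread between these libraries. In lists below the share was 80% for the eEF1 complex, 62.5% for mitochondrial translation factors and 56.2% for tRNA synthesis. It was 35.3% for other tRNA charging genes, 17.1% for amino acid response genes and 13.3% for interferon-stimulated genes. The median SE was 0.098 in the 40 genes and 0.135 in all tested genes. The Ctrl median level per length lay at percentile 88.5 for cytosolic and 53.3 for mitochondrial genes. The part of level in this was not tested. The median signed log2 fold change was 0.069 in the 40 genes and 0.0055 in all tested genes.

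**Figure D1:**
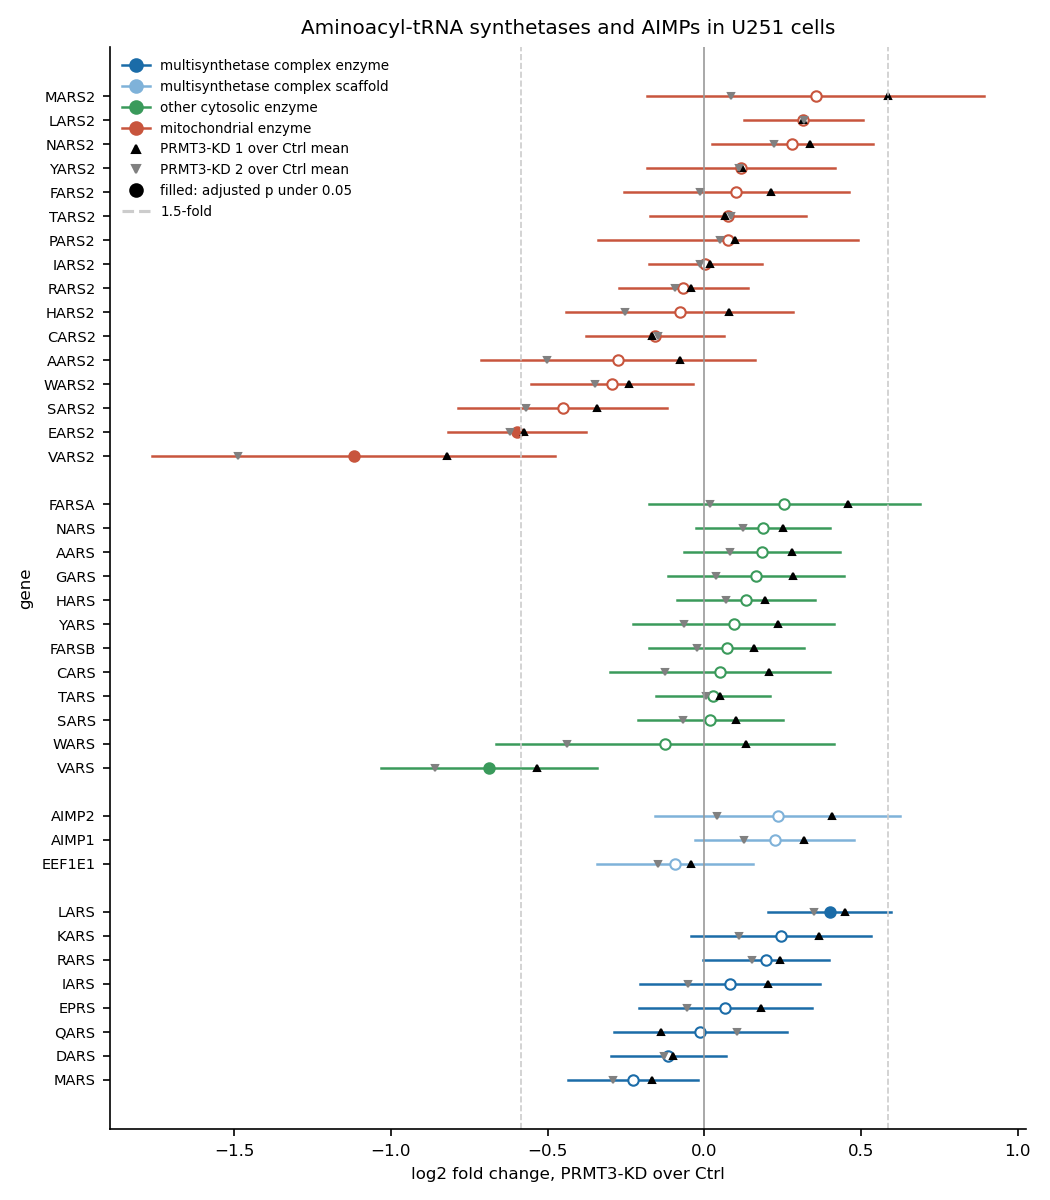
Log2 fold change of PRMT3-KD over Ctrl (horizontal axis) for 39 of the 40 genes, grouped as multisynthetase complex enzymes, scaffolds, other cytosolic enzymes and mitochondrial enzymes, with the 95% interval as a line and filled circles for genes with an adjusted p under 0.05. Black and grey triangles give PRMT3-KD libraries 1 and 2 over the Ctrl mean, and dashed lines mark 1.5-fold; only VARS, VARS2, EARS2 and LARS are filled, and the black triangle lies to the right of the grey one for 35 of the 39 genes shown.

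The genes of both valine enzymes, the cytosolic and the mitochondrial, were called lower in these mRNA counts. VARS, the cytosolic valyl-tRNA synthetase, which unlike most free synthetases is bound to the eEF1 elongation complex, had 6799 and 6984 counts in Ctrl and 4384 and 3905 in PRMT3-KD. Both PRMT3-KD values lay below both Ctrl values, at 173 and 137 CPM against 245 and 254 CPM. The mean fell from 250 ± 6.02 to 155 ± 24.8 CPM (SD, n = 2 each), to 62.1% of Ctrl. The log2 fold change was -0.69 (SE 0.129, 95% interval -1.03 to -0.34, adjusted p = 0.0366, edgeR). VARS lies at chr6:31745295-31763529 on the minus strand (GRCh37, GENCODE 44), with no annotated pseudogene and no exonic overlap with another coding gene.

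VARS2, the mitochondrial valyl-tRNA synthetase, fell further. Its counts were 945 and 854 in Ctrl and 468 and 330 in PRMT3-KD, again without overlap. The mean went from 32.6 ± 2.16 to 15.02 ± 4.81 CPM (SD, n = 2 each), which is 46.1% of Ctrl, and the log2 fold change was -1.12 (SE 0.241, 95% interval -1.76 to -0.48, adjusted p = 0.0467, edgeR). This was the largest change of the 40 genes in either direction. VARS had the next largest with all libraries, though without PRMT3-KD library 2 it was at -0.54 and EARS2 at -0.58. VARS2 is a separate gene on the same chromosome, at chr6:30881982-30894236 on the plus strand, likewise without a pseudogene or an overlapping coding gene. Valine was the only amino acid for which the genes of the cytosolic and the mitochondrial enzyme were both called.

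EARS2, which charges mitochondrial tRNAs with glutamate, was the third gene called lower. It had 1080 and 1063 counts in Ctrl and 662 and 717 in PRMT3-KD, and the PRMT3-KD libraries nearly coincided at 26.1 and 25.2 CPM. The mean fell from 38.8 ± 0.235 to 25.6 ± 0.579 CPM (SD, n = 2 each), to 66.1% of Ctrl, with a log2 fold change of -0.60 (SE 0.0831, 95% interval -0.82 to -0.38, adjusted p = 0.0227, edgeR). EARS2 lies at chr16:23532075-23569052 on the minus strand, and 203 bases (3.91%) of its exons overlap GGA2 on the same strand, so a few reads could belong to either gene. GGA2, which encodes a sorting adaptor of the trans-Golgi network, had a log2 fold change of -0.16 (adjusted p = 0.177, edgeR). The cytosolic enzyme for glutamate is EPRS, a fusion of glutamyl- and prolyl-tRNA synthetase that also charges proline. EPRS had 5899 and 5728 counts in Ctrl and 6063 and 5756 in PRMT3-KD, the groups overlapped in CPM, and its log2 fold change was 0.067 (SE 0.103, 95% interval -0.21 to 0.34, adjusted p = 0.674, edgeR).

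LARS, the cytosolic leucyl-tRNA synthetase and a sensor of leucine for mTORC1, was the 1 gene called higher. Its counts were 4909 and 4935 in Ctrl and 6177 and 6456 in PRMT3-KD, with both PRMT3-KD libraries above both Ctrl libraries. The level rose from 178 ± 1.58 to 235 ± 11.2 CPM (SD, n = 2 each), to 132% of Ctrl, with a log2 fold change of 0.40 (SE 0.0735, 95% interval 0.20 to 0.60, adjusted p = 0.0355, edgeR). LARS lies at chr5:145490129-145562259 on the minus strand. Its mitochondrial counterpart LARS2 had 1402 and 1379 counts in Ctrl and 1591 and 1783 in PRMT3-KD, which is 50.6 and 50.1 CPM against 62.6 and 62.8 CPM. These values did not overlap, but the log2 fold change of 0.32 (SE 0.0715) had an adjusted p of 0.0511 (edgeR) and missed the threshold.

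**Figure D2:**
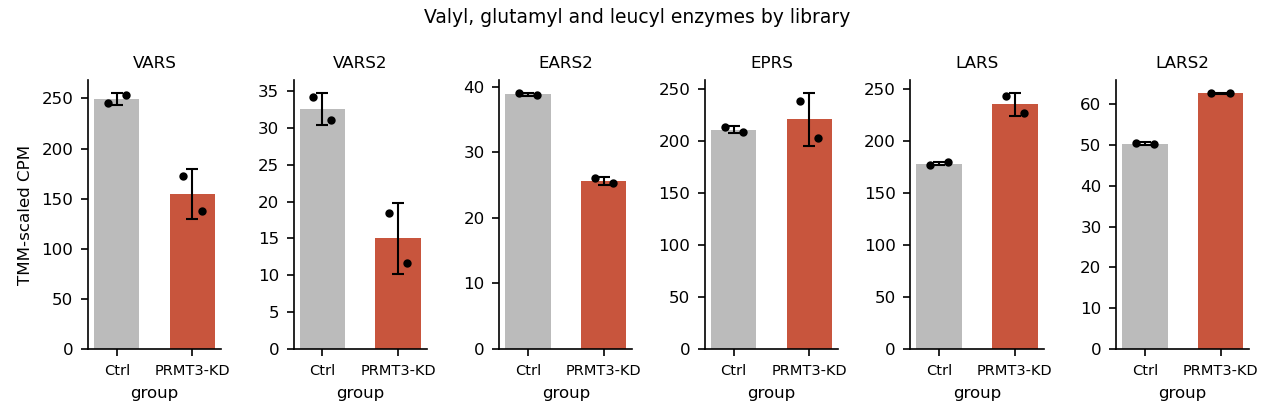
TMM-scaled CPM (vertical axes, each from 0) of the valyl enzymes VARS and VARS2, the glutamyl enzymes EARS2 and EPRS and the leucyl enzymes LARS and LARS2 in Ctrl and PRMT3-KD cells. Bars are means, error bars SD (n = 2) and points single libraries; the PRMT3-KD points lie below Ctrl for VARS, VARS2 and EARS2, above Ctrl for LARS and LARS2, and on both sides of Ctrl for EPRS.

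The 4 calls were lost when either Ctrl library was left out, and in those fits the spread comes from the PRMT3-KD pair alone. Without Ctrl library 1, edgeR called 0 of all 13172 genes, 1817 of which had an unadjusted p under 0.05, and without Ctrl library 2 it called 17 genes lower and 9 higher. The log2 fold changes without Ctrl library 1 and without Ctrl library 2 were -0.71 and -0.67 for VARS, -1.05 and -1.19 for VARS2, -0.59 and -0.61 for EARS2 and 0.39 and 0.41 for LARS. Their adjusted p ran from 0.171 to 0.457, and 3 of the 40 genes had an unadjusted p under 0.05 in each. Without PRMT3-KD library 1 the test called 14 of the 40 genes lower and 9 higher, and without PRMT3-KD library 2 it called 10 lower and 20 higher. In these last fits the lone PRMT3-KD library is assumed to vary as little as the Ctrl libraries do, and 33.4% to 33.8% of all genes were called in each direction. With library totals in place of TMM factors, VARS, VARS2 and LARS had adjusted p of 0.0540, 0.0609 and 0.0737, and EARS2 alone remained past the threshold.

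The 2 PRMT3-KD libraries differed over the family as a whole. The 40 genes took 0.409% of the counts in each Ctrl library, 0.451% in PRMT3-KD library 1 and 0.372% in PRMT3-KD library 2, so the PRMT3-KD libraries lay on opposite sides of Ctrl. The summed level of the cytosolic enzymes and scaffolds was 3462 and 3467 CPM in Ctrl, 3841 CPM in PRMT3-KD library 1 and 3379 CPM in PRMT3-KD library 2. For the mitochondrial enzymes the sums were 580 and 578 CPM in Ctrl against 564 and 517 CPM in the PRMT3-KD libraries. In CPM, PRMT3-KD library 1 lay above PRMT3-KD library 2 for 36 of the 40 genes (90%), where it did so for 53.6% of all tested genes. The exceptions were QARS, LARS2, CARS2 and TARS2. The tilt was not particular to the family. Among the pathway lists described below, the share was 91.7% for mitochondrial translation and tRNA modification factors and 80% for interferon-stimulated genes. For tRNA synthesis, processing and export it was 78.1%, and for other tRNA charging genes 76.5%. For amino acid response genes it was 68.6% and for the eEF1 complex 20%. Relative to the Ctrl mean, the median log2 ratio of the 40 genes was 0.13 for PRMT3-KD library 1 and -0.019 for PRMT3-KD library 2. Over all tested genes these medians were -0.00021 and -0.0077. The median difference between the libraries of a pair was 0.176 on the log2 scale in PRMT3-KD and 0.0355 in Ctrl for the 40 genes, and 0.238 and 0.0532 for all tested genes.

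In both PRMT3-KD libraries 11 of the 40 genes lay below both Ctrl libraries and 16 lay above them, and 13 overlapped. These are 27.5% and 40% of the genes, where 33.8% of all tested genes lay below without overlap and 33.3% lay above. Of the 23 cytosolic genes 3 lay below (13%) and 10 above (43.5%). Of the 17 mitochondrial genes 8 lay below (47.1%) and 6 above (35.3%), the last near the share of all tested genes. Against the Ctrl mean, PRMT3-KD library 1 had a median log2 ratio of 0.20 over the cytosolic genes, and PRMT3-KD library 2 had 0.0046. Over the mitochondrial genes these medians were 0.019 and -0.094. The difference between the sides was not tested.

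Within the multisynthetase complex, LARS was the only one of the 8 enzymes called (12.5%, against 8.39% of all tested genes called higher). The other 7 had log2 fold changes between -0.23 and 0.24. MARS, which charges both initiator and elongator methionine tRNAs, was the lowest, with 5058 and 4990 counts in Ctrl and 4118 and 4222 in PRMT3-KD, a log2 fold change of -0.23 (SE 0.0780, adjusted p = 0.112, edgeR). KARS, the lysyl enzyme, was next to LARS at the upper end with 0.24 (SE 0.108, adjusted p = 0.181, edgeR). The arginyl enzyme RARS was at 0.20, the isoleucyl enzyme IARS at 0.082, the glutaminyl enzyme QARS at -0.013 and the aspartyl enzyme DARS at -0.11, all with adjusted p of 0.140 or more. The scaffolds had log2 fold changes of 0.22 for AIMP1, 0.23 for AIMP2 and -0.094 for EEF1E1, and the lowest adjusted p among them was 0.168 (edgeR). Without PRMT3-KD library 1 the value of AIMP2 was 0.040. AIMP2 shares 44.4% of its exonic bases with EIF2AK1 on the other strand. EIF2AK1, the heme-regulated eIF2α kinase, was called lower (log2 fold change -1.05, adjusted p = 0.0154, edgeR). Whether the counting used strand is not given in the sources used here, so the level of AIMP2 may hold reads of EIF2AK1. EEF1E1 likewise shares 37.5% of its exonic bases with the readthrough gene EEF1E1-BLOC1S5.

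Among the 12 other cytosolic enzymes VARS was the only gene called (8.33%, against 8.91% of all tested genes called lower). The other 11 had log2 fold changes between -0.13 and 0.26, and the lowest adjusted p among them was 0.170. The highest was FARSA, the catalytic subunit of phenylalanyl-tRNA synthetase, at 0.26 (SE 0.162, adjusted p = 0.319, edgeR), while FARSB, the other subunit of the same enzyme, was at 0.071. The value of FARSA rested on PRMT3-KD library 1, and without that library it was 0.017. NARS, AARS and GARS, for asparagine, alanine and glycine, were at 0.19, 0.18 and 0.17, each, like FARSA, with both PRMT3-KD libraries above Ctrl. These values also leaned on PRMT3-KD library 1. For libraries 1 and 2 the log2 ratios to the Ctrl mean were 0.25 and 0.12 for NARS, 0.28 and 0.082 for AARS and 0.28 and 0.037 for GARS. WARS, the tryptophanyl enzyme, known as an interferon-induced gene, was the lowest of the 11 at -0.13 (SE 0.202, adjusted p = 0.689, edgeR). Its PRMT3-KD libraries straddled Ctrl, with 2442 and 1840 counts against 2436 and 2407.

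The mitochondrial enzymes spread more widely, from -1.12 for VARS2 to 0.36 for MARS2. Of these 17 genes 2 were called lower (11.8%, against 8.91% of all tested genes) and 0 higher, and DESeq2 called the same 2. At an unadjusted p under 0.05, 6 passed (35.3%, against 37.6% of all tested genes). After VARS2 and EARS2 came SARS2, the seryl enzyme, with 525 and 492 counts in Ctrl and 369 and 353 in PRMT3-KD, a log2 fold change of -0.45 (SE 0.125, adjusted p = 0.0744, edgeR). A readthrough gene on the same strand covers 77.5% of the exonic bases of SARS2, so reads there cannot be assigned with certainty. WARS2 was at -0.29 (adjusted p = 0.104) and AARS2 at -0.28 (adjusted p = 0.289). At the upper end, MARS2 had 271 and 271 counts in Ctrl and 374 and 296 in PRMT3-KD. Its log2 fold change of 0.36 had a wide error (SE 0.201, adjusted p = 0.272, edgeR). NARS2 was at 0.28 (SE 0.0968, adjusted p = 0.113, edgeR), and IARS2, with at least 2933 counts in every library, was at 0.0024 (SE 0.0676, 95% interval -0.18 to 0.18).

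By catalytic class, all 4 calls were class I enzymes. Of 18 class I genes 3 were called lower and 1 higher, and of 18 class II genes none was called by edgeR or DESeq2, with 2 at an unadjusted p under 0.05. The class I shares are 16.7% lower and 5.56% higher, beside 8.91% and 8.39% of all tested genes. EPRS, which carries a class I and a class II domain, and the 3 scaffolds were left out of this count. The median log2 fold change was -0.0051 for class I and 0.074 for class II. The difference between the classes was not tested.

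When each mitochondrial enzyme was set beside its cytosolic partner, 18 pairs over 17 amino acids could be formed, with EPRS and FARS2 in 2 pairs each. The mitochondrial log2 fold change was the lower of the pair in 12 of 18 pairs, with a median difference of -0.14. Both partners fell on the same side of 0 in 11 pairs, 3 negative and 8 positive. The widest gaps toward the mitochondrial enzyme were at glutamate (-0.66), serine (-0.47), alanine (-0.46) and valine (-0.43), each with the same sign in both PRMT3-KD libraries. Methionine went the other way, with MARS2 0.58 above MARS, and MARS shares 65 exonic bases (2.32%) with DDIT3 on the other strand. The pairs share their libraries, and these differences carry no test.

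**Figure D3:**
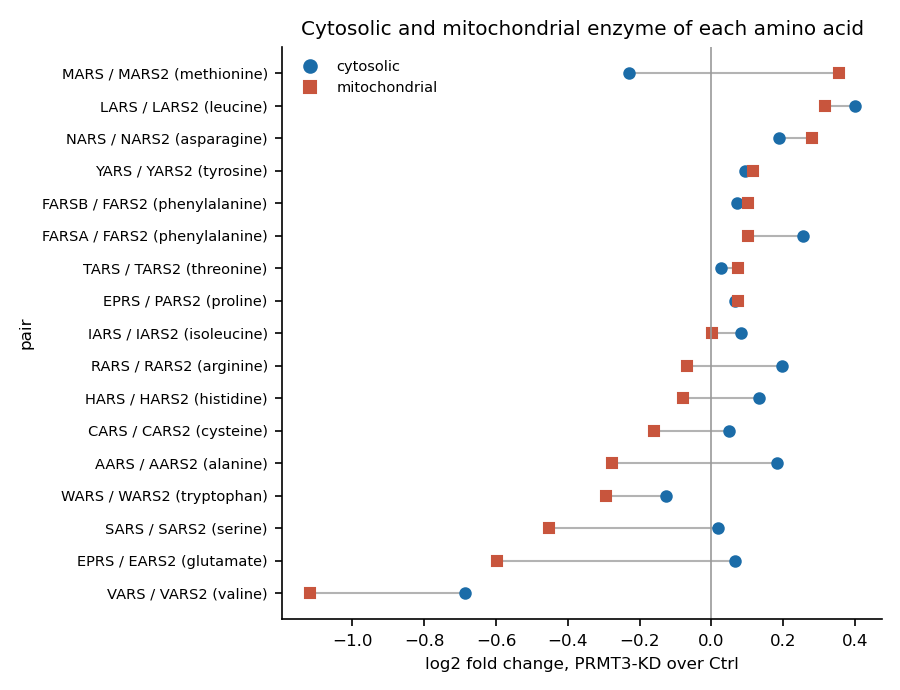
Log2 fold change of PRMT3-KD over Ctrl for the cytosolic enzyme (circle) and the mitochondrial enzyme (square) of each amino acid, 17 of the 18 pairs ordered by the mitochondrial value. The square lies left of the circle in 11 of the 17 pairs shown; both lie far left of 0 for valine and right of 0 for leucine.

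Levels per length were compared within each group of libraries, as CPM per kb of the canonical transcript. In Ctrl cells the 23 cytosolic genes had a median of 47.0 CPM per kb (12.3 to 114) and the 17 mitochondrial genes a median of 9.11 (2.14 to 32.3). The highest level was that of TARS, the threonyl enzyme, at 114 ± 2.53 CPM per kb (SD, n = 2), followed by GARS at 104 ± 1.12, SARS at 95.9 ± 0.106 and AARS at 93.5 ± 0.720. Neighbours further down often did not differ beyond their spread, as YARS at 73.4 ± 1.38 and QARS at 73.05 ± 0.115. Among the 8 enzymes of the complex QARS was highest and DARS lowest at 26.7 ± 0.0524, and the scaffolds ran from 22.5 for AIMP1 to 35.98 for EEF1E1. FARSB was the lowest cytosolic gene at 12.3 ± 0.274, against 66.5 ± 0.662 for FARSA, although the subunits form 1 enzyme. The canonical FARSB transcript is 6761 bases long and that of FARSA 1811, and which transcripts these cells use was not tested.

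Among mitochondrial enzymes IARS2 was highest at 32.3 ± 0.015 CPM per kb and PARS2 lowest at 2.14 ± 0.0762. The cytosolic partner was the higher in 17 of 18 pairs, by up to 20.3-fold for EPRS over PARS2. The exception was cysteine, where CARS was at 24.2 ± 0.521 and CARS2 at 25.9 ± 1.26 CPM per kb, a ratio of 0.936. In PRMT3-KD this ratio of means was 1.08, and by the means the cytosolic partner was the higher in 18 of 18 pairs. For cysteine this rested on PRMT3-KD library 1, with CARS at 27.9 and CARS2 at 23.0 CPM per kb. In PRMT3-KD library 2 they were at 22.2 and 23.3, with CARS2 still the higher. In Ctrl VARS ranked 10th and VARS2 32nd of the 40 genes, and in PRMT3-KD they ranked 16th and 38th. LARS moved from rank 16 to rank 13.

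**Figure D4:**
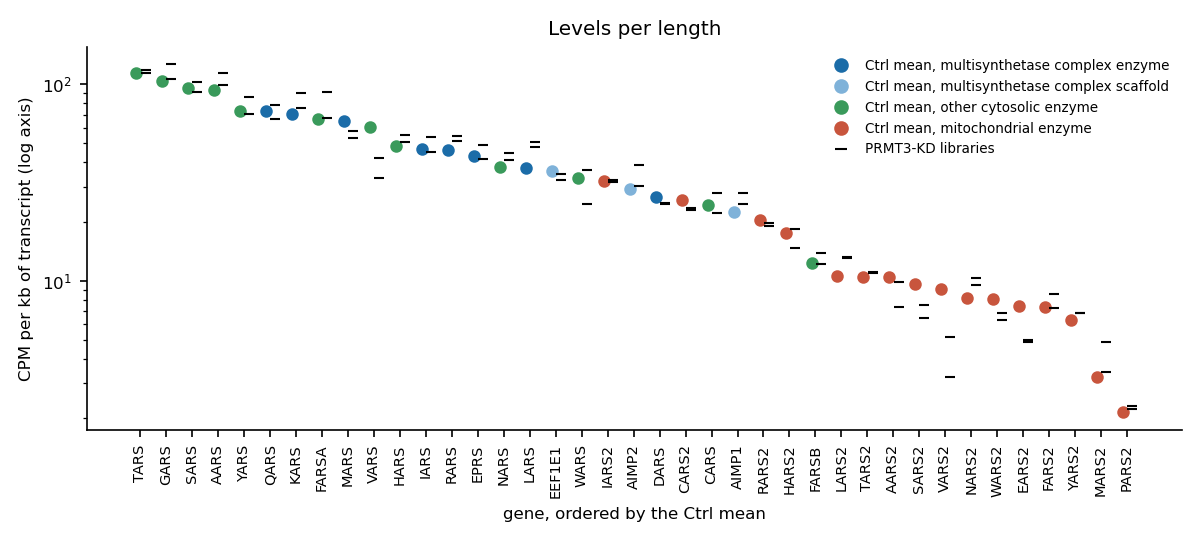
Level per length in CPM per kb of canonical transcript (log axis) for 39 of the 40 genes in order of the Ctrl mean (circles, coloured by group), with the PRMT3-KD libraries as dashes. Cytosolic genes fill most of the left and mitochondrial genes most of the right; the dashes of VARS and VARS2 lie below their circles.

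The amino acid response gives a reference for the cytosolic set. Its promoter element, the C/EBP-ATF response element (CARE), was searched in RefSeq promoters (GRCh38.p14, 250 bases before to 50 after the start) as TGATGNAA on both strands. RefSeq promoters matched 33 of the 40 genes. The other 7 genes, VARS, VARS2 and LARS among them, had no matching entry. The letters occur in 8 of the 33 genes (24.2%) and in 301 of 10581 tested genes with a promoter (2.84%). Of these 8, 7 are cytosolic. They are printed here because the amino acid response acts through this element, with the element in capitals and 20 bases on each side, 5′ to 3′ along the gene. Capitals that begin with TT hold the element on the opposite strand.
AARS, minus strand of chr16:70289666-70289713: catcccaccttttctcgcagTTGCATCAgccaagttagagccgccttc
CARS, minus strand of chr11:3057398-3057445: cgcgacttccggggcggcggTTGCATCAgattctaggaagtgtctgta
GARS, plus strand of chr7:30594825-30594872: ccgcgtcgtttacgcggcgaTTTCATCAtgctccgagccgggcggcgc
IARS, minus strand of chr9:92293683-92293730: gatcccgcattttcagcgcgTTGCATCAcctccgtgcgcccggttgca
MARS, plus strand of chr12:57488044-57488091: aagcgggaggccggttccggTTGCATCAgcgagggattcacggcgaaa
NARS, minus strand of chr18:57621795-57621842: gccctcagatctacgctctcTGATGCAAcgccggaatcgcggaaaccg
TARS, plus strand of chr5:33440947-33440994: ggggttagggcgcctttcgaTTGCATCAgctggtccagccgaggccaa
YARS2, minus strand of chr12:32756067-32756114: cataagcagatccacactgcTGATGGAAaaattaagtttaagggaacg

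The 8 genes with these letters had log2 fold changes between -0.23 (MARS) and 0.19 (NARS), with a median of 0.099. None was called by edgeR or DESeq2, where edgeR called 8.91% of all tested genes lower and 8.39% higher. MARS alone had an unadjusted p under 0.05 (edgeR), as 37.6% of all tested genes did. With 8 genes, these counts say little about the element. The other 25 genes with a promoter entry had a median of 0.071. Over all tested genes with a promoter the median was 0.036 with the letters and 0.0061 without. Outside the synthetases, the 35 listed genes of the amino acid response held 7 called lower (20%, against 8.91% of all tested genes) and 1 called higher (2.86%, against 8.39%), with a median of -0.013. DESeq2 called 11 of them lower and 8 higher, where it called 10.8% of all tested genes lower and 10.3% higher. The PRMT3-KD libraries stood on opposite sides of Ctrl for several of them. ASNS, which makes asparagine, had a log2 ratio to Ctrl of 0.73 for the first and -0.79 for the other PRMT3-KD library, and DDIT3, a transcription factor of the stress response, had 0.81 and -0.27. These genes and ATF4 were named after their values were seen. SLC7A5, the large neutral amino acid transporter that brings in leucine and valine among others, had 13384 and 13598 counts in Ctrl and 5240 and 4724 in PRMT3-KD, a log2 fold change of -1.39 (adjusted p = 0.0154, edgeR). CEBPG, a partner of ATF4 in binding this element, was at -1.15, ALDH18A1, of proline synthesis, at -0.66 and SLC7A11, the cystine transporter, at -0.63. The stress gene NUPR1 was the 1 gene called higher, at 0.76. ATF4 itself was at 0.30 (adjusted p = 0.0515, edgeR).

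EARS2 was the only called gene with a RefSeq promoter, and its promoter holds 2 other elements that were searched. The E-box CACGTG, bound by MYC, USF and other basic helix-loop-helix factors, was found in 5 of the 33 genes (AIMP2, CARS2, EARS2, IARS and MARS2) and in 12.4% of all tested genes with a promoter. Their log2 fold changes ran from -0.60 to 0.36. The interferon regulatory element, searched as GAAA repeated after a gap of 2 bases on either strand, was found in EARS2 and WARS and in 3.93% of all tested genes with a promoter. These stretches are printed because EARS2 fell and WARS is the interferon-induced enzyme, with the element in capitals.
EARS2 E-box, minus strand of chr16:23557340-23557385: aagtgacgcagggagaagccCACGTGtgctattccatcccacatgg
EARS2 interferon regulatory element, minus strand of chr16:23557544-23557593: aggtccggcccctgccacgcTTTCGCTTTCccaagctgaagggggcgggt
WARS interferon regulatory element, minus strand of chr14:100375373-100375422: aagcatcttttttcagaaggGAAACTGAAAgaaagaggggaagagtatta

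WARS, which carries the second of these interferon elements, was not called, while many interferon-stimulated genes were. Of 15 listed genes tested, 7 were called higher (46.7%, against 8.39% of all tested genes) and 0 lower, with a median log2 fold change of 0.94. DESeq2 called 10 higher and 0 lower, where it called 10.3% of all tested genes higher and 10.8% lower. OAS2, which senses double-stranded RNA, was at 1.95, IFIT2 at 1.51, IFI6 at 1.38, IFIT1 at 1.29 and the ubiquitin-like ISG15 at 0.98. Over the same libraries WARS had the value of -0.13 given above, with a 95% interval of -0.66 to 0.41.

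Other genes linked to tRNA charging were taken from a list that holds further charging and editing enzymes, the selenocysteine route and enzymes that act on charged or uncharged tRNA. Of 17 tested, 4 were called lower (23.5%, against 8.91% of all tested genes) and 0 higher, with a median of -0.016. PSTK, which phosphorylates seryl-tRNA on the way to selenocysteine, was at -0.995 (adjusted p = 0.0243, edgeR), with 271 and 254 counts in Ctrl and 127 and 129 in PRMT3-KD. SEPHS1, a homologue of selenophosphate synthetase, was at -0.41, and DALRD3, which takes part in the methylation of arginine tRNAs, at -0.71. GATC, a subunit of the amidotransferase that converts the glutamyl-tRNA made by EARS2 into mitochondrial glutaminyl-tRNA, was at -0.54 (adjusted p = 0.0488, edgeR). The other subunits QRSL1 and GATB, named here after their values were seen, were at 0.42 and 0.20 with adjusted p of 0.0560 and 0.201, so 1 of the 3 subunits of this enzyme was called.

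Genes upstream and downstream of charging were counted in the same way. Among 32 tested genes of tRNA synthesis, processing and export, 6 were called lower (18.8%, against 8.91% of all tested genes) and 1 higher (3.12%, against 8.39%), with a median of 0.015. TSEN15, a subunit of the tRNA splicing endonuclease, was at -0.80, ELAC2, which trims the 3′ end of tRNA precursors, at -0.69, MAF1, the repressor of RNA polymerase III, at -0.68, and GTF3C2 and GTF3C5, subunits of TFIIIC, at -0.52 and -0.51. The other TFIIIC subunits of the list, named after their values were seen, were not called, with GTF3C1 at 0.20, GTF3C3 at 0.22, GTF3C4 at -0.26 and GTF3C6 at -0.068. In the eEF1 complex, to which VARS is bound, EEF1A2, the form of the tRNA carrier found in neurons and muscle, was called higher at 1.02 (adjusted p = 0.0381, edgeR). It is 1 of 5 genes tested (20%, against 8.39% of all tested genes), and the other 4 subunits were not called. Of 24 factors of mitochondrial translation and tRNA modification, edgeR called 0, against 8.91% of all tested genes lower and 8.39% higher. At an unadjusted p under 0.05, 4 passed (16.7%, against 37.6% of all tested genes), and the lowest adjusted p was 0.0537. DESeq2 called 2 lower, where it called 10.8% of all tested genes lower. These lists were chosen with earlier results of these data known, and their counts are descriptions.

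**Figure D5:**
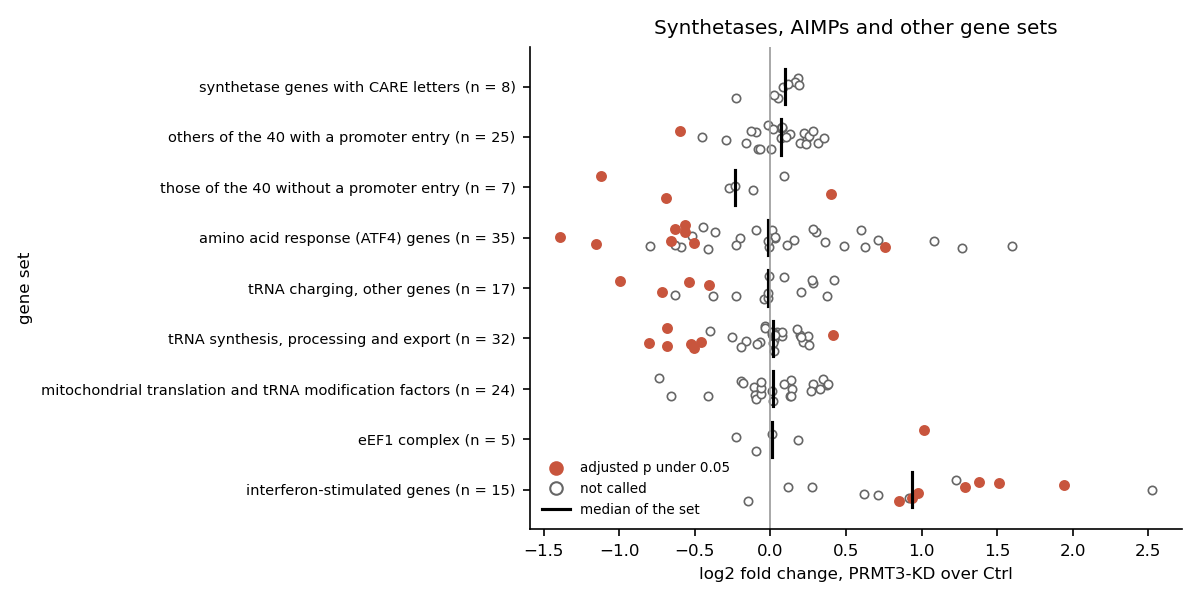
Log2 fold change of PRMT3-KD over Ctrl for single genes in 9 sets: the 40 genes split by promoter letters (8 with the CARE letters, 25 others with a promoter entry, 7 without one), and 6 lists of other genes. Filled circles have an adjusted p under 0.05, vertical bars are medians, and vertical scatter within a set carries no meaning; the 8 genes with CARE letters lie between -0.23 and 0.19, the amino acid response genes spread from -1.39 to 1.60 and the interferon genes lie mostly above 0.

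The 3′ UTRs of the family were searched for CAGCTCA, letters that earlier results of these data found in several of the genes that fell most. In 12619 tested genes with a 3′ UTR of at least 50 bases, 17.5% held the letters. Of genes with them 16.03% were called lower, against 7.53% of genes without. Since the letters were picked from genes that fell in these same data, this contrast is no independent result. The length of the 3′ UTR, which bears on whether a gene holds the letters, was not taken into account. Among the 40 genes 3 held them, FARSB, IARS2 and PARS2 (7.5%), with log2 fold changes of 0.071, 0.0024 and 0.074. None of the 3 was called by edgeR or DESeq2. Of all tested genes edgeR called 8.91% lower and 8.39% higher, so the lack of a call among 3 genes says little. VARS, VARS2, EARS2 and LARS hold none. The sites are shown with the letters in capitals (GRCh37 coordinates of the capitals), as the only ones found in the family.
FARSB, minus strand of chr2:223433821-223433827: agaagcgaatcCAGCTCAtgagtcgaggct
IARS2, plus strand of chr1:220320984-220320990: tattaaCAGCTCActcgagcaagaa
PARS2, minus strand of chr1:55223298-55223304: cagaaacagcaCAGCTCAtggagggtgaga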

How the data were processed

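The authors aligned reads to hg19 with TopHat and made unnormalized gene read counts with Cufflinks, and the deposited table holds these whole-number counts for 4 libraries. Tool versions, the gene annotation, strand use and any filter on genes are not given in the sources used here. The submitters' processing notes also name CASAVA and DESeq2. Of 15576 entries 1 duplicate was removed.

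edgeR 4.0.16 (R 4.3.3) was used with TMM factors, after filterByExpr at a minimum count of 10 and a minimum total of 15. The quasi-likelihood test used glmQLFit followed by glmQLFTest, with Benjamini-Hochberg adjustment over 13172 genes. A standard error is the log2 fold change divided by the square root of F, and 95% intervals from the t distribution with the degrees of freedom of the test (3.46 to 4.46). No covariate was used. Alternatives were DESeq2 1.42.0, limma-voom (limma 3.58.1) with group weights, other scalings, other filters, a block for the replicate number, the omission of single libraries, and a 1.5-fold threshold. The functions were tested on simulated data.

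Coordinates are from GENCODE 44 on GRCh37, in which 99.6% of the tested genes were found by identifier. Levels per length use the canonical transcript. Promoters are from RefSeq on GRCh38.p14 and were matched by symbol. Sequence searches used Python 3.11.15 with pandas 2.3.3.

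The members, lists and searched letters were chosen with earlier results of these data known. Of the 40 members, 1 is in the counts but is not reported here by name. Every other member could be named. From each list up to 5 genes with the largest absolute log2 fold change among those called were named, with PRMT3. EIF2AK1, GGA2, ATF4, ASNS, DDIT3, QRSL1, GATB, the other TFIIIC subunits and the marker genes were named beside results that they touch. Protein sequences were not used here. The test includes counting error and the spread between libraries.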

Additional observations from a re-analysis of the deposited data

How the results depend on the processing

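The members called lower and higher were 3 and 1 with edgeR, with DESeq2 and with limma-voom, and the same 4 genes were called by all 3 tools. Of all tested genes these tools called 8.91%, 10.8% and 10.6% lower and 8.39%, 10.3% and 11.1% higher. With library totals only the members called were 1 (EARS2) and 0, and 7.48% and 5.62% of all tested genes were called lower and higher. LARS2 joined LARS, making 2 higher, with upper-quartile scaling (adjusted p = 0.0498) and with at least 10 counts in every library (adjusted p = 0.0499). These fits called 8.63% and 8.93% of all tested genes higher. With a 1.5-fold threshold 0 were higher. With the replicate number as a block 3 were lower and 0 higher, LARS having an adjusted p of 0.0754, and no other call among the members changed. That fit called 6.77% of all tested genes lower and 5.8% higher. Across genes, the difference between libraries 2 and 1 in Ctrl and in PRMT3-KD had a correlation of 0.0222. The Ctrl libraries differed by little more than counting error, so this value cannot show whether the numbers pair the libraries. Leaving out each library, members called lower ranged from 0 to 14 and called higher from 0 to 20. The calls of the pathway lists came to 27 in all, to 44 with DESeq2 and to 26 with the block. The shares of all tested genes called in these fits are those given above. With the block, the list of other tRNA charging genes went from 4 to 1. That of tRNA synthesis, processing and export went from 6 lower and 1 higher to 4 and 0. The log2 fold change of PRMT3 ranged from -3.61 to -2.68 when a library was left out.

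Of 440 single-member values under the alternatives, 368 kept direction and side of the threshold, 44 gained a call with the same sign, 12 lost one and 16 changed sign, the last for members that edgeR did not call with all libraries. Of these 16, 3 were called with the new sign, QARS and CARS without PRMT3-KD library 1 and WARS without PRMT3-KD library 2. Leaving out each library in turn, the log2 fold changes ranged from -0.056 to 0.18 for EPRS, from -0.052 to 0.20 for IARS, from -0.14 to 0.10 for QARS, from -0.13 to 0.20 for CARS, from -0.023 to 0.16 for FARSB, from -0.068 to 0.097 for SARS, from -0.44 to 0.13 for WARS, from -0.064 to 0.23 for YARS, from -0.014 to 0.21 for FARS2, from -0.25 to 0.073 for HARS2 and from -0.015 to 0.015 for IARS2, each with opposite signs without PRMT3-KD library 1 and without PRMT3-KD library 2. With library totals only SARS, TARS and IARS2 turned to -0.0085, -0.0024 and -0.028. IARS2 was at -0.00086 with at least 10 counts in every library and at -0.00043 without Ctrl library 2. The cause of these changes was not tested. The widest intervals were those of VARS2 (-1.76 to -0.48), WARS (-0.66 to 0.41) and MARS2 (-0.18 to 0.89), the 3 members whose PRMT3-KD libraries lay furthest apart.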
